A study of Mus musculus with 25 samples.

Results

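Cells sorted from the injured mouse spinal cord and labelled as astrocytes were compared between 3 months and 7 days after a contusion, that is, between chronic and acute injury, without sham animals in the contrast. The comparison rests on 5 of the 25 libraries of the series: replicates 1 and 3 at 3 months, and replicates 1, 2 and 3 at 7 days. Every animal carried the genotype written GFAP-Cre-/+:R26-tdT-/+, in which a Cre recombinase under Gfap control switches on the red reporter tdTomato, so sorting took tdTomato+ cells that express Gfap or descend from cells that did. An impactor bruised the cord at thoracic level 9 with a force of 60 kdyn, and each replicate pooled 3 mice, so p-values measure the spread between pools. The cells were freed with papain, trypsin and DNase and cleared of myelin before sorting. The labels used here give neither the age nor the strain background of these mice. The 3 libraries taken 1 month after the same injury share the fit and its estimate of spread. The 3 sham libraries, from cords opened but not contused and taken 7 days after surgery, carry the same alleles and appear only as reference values.

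Astrocytes answer injury by raising intermediate filaments such as Gfap, by dividing near the lesion and by secreting matrix, and the scar they border matures over weeks. Microglia and incoming macrophages clear debris, present antigen on MHC class II and persist in the chronic lesion, while oligodendrocyte precursors divide, differentiate and remyelinate axons. All of these cells contribute RNA to a sample in proportion to their number and content, so in these bulk libraries fewer cells of a type and less RNA per cell cannot be told apart.

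Total counts were 31715613, 36830508 and 44017602 at 7 days and 36326982 and 22466743 at 3 months. The label was checked per length, as CPM (counts scaled so that libraries of unequal depth compare) per kilobase of exon. Gfap stood at 269 to 342 CPM per kilobase at 7 days and at 39.8 to 41.9 at 3 months. Pdgfra, the receptor that marks oligodendrocyte precursors, stood at 150 to 184 and at 165 to 177, and C1qa, a complement gene of microglia and macrophages, at 521 to 699 and at 1470 to 2290. Per length, Gfap was thus above Pdgfra at 7 days and below it at 3 months, and C1qa was above both at both times. The astrocyte list of 25 genes for mature function summed to 3789 to 4205 CPM at 7 days and 4067 to 4206 at 3 months, against 12930 to 15780 in sham. The neuronal nuclear gene Rbfox3 was at most 0.122 CPM per kilobase at 7 days and 0.286 at 3 months. The libraries therefore hold strong signal from cells other than astrocytes, and they are called sorted cells below.

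Of 23206 genes tested, 4384 (18.9%) differed between 3 months and 7 days, 1929 higher (8.31% of genes tested) and 2455 lower (10.6%) at 3 months. A gene is said to have risen, fallen or been called where the adjusted p of edgeR's quasi-likelihood test was under 0.05 over all genes tested. At least 2-fold changes made up 945 of the rises and 791 of the falls, and the median log2 change over all genes was -0.00044. Coding genes were called in 25.2% of 16014 tests and long non-coding genes in 4.92% of 7192. The 1-month mean lay between the 7-day and 3-month means in 1421 of the 1929 rises (73.7%) and 1992 of the 2455 falls (81.1%), against 44.2% of all genes tested. The 1-month libraries are used in the fit, and called genes were chosen for separated 7-day and 3-month means. Such a choice by itself raises the share with a 1-month mean in between. These shares are therefore descriptions, and their difference from all genes was not tested. The estimate of spread matters: when the sham libraries also entered the fit, 1506 genes were called (604 higher, 902 lower), 1502 of them among the 4384. Beside each list below, the number of its calls that stood in this fit is given.

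**Figure D1:**
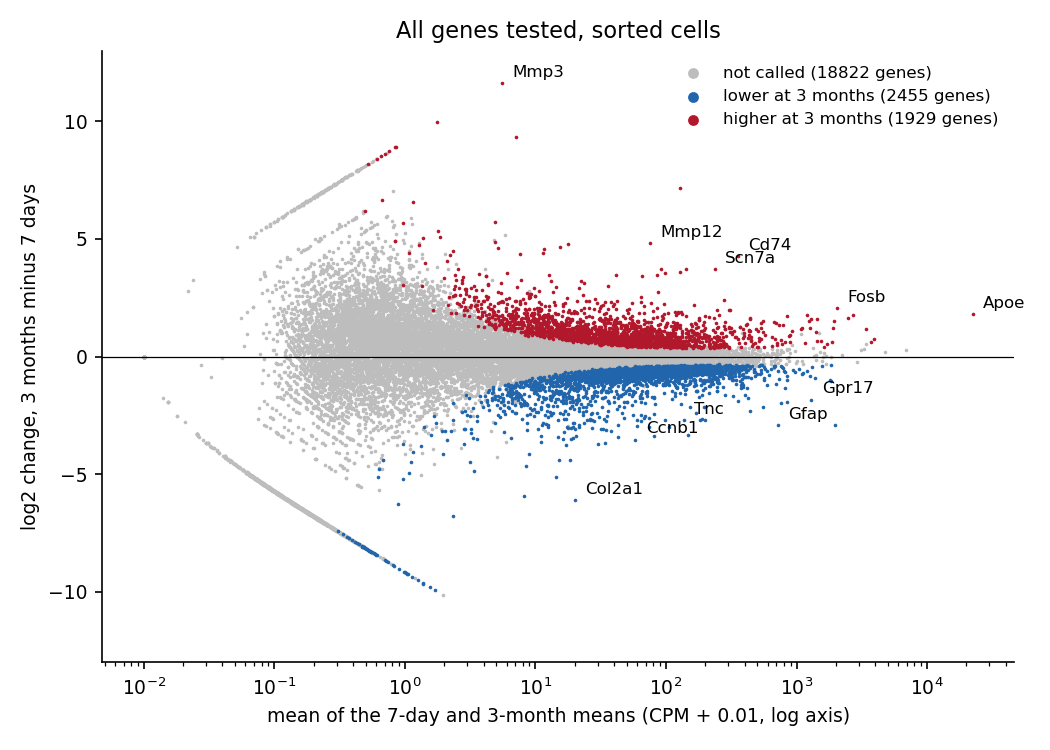
Log2 change (3 months minus 7 days, vertical axis) of each of the 23206 genes tested against its mean level in CPM plus 0.01 (log horizontal axis), with 1929 genes higher in red, 2455 lower in blue and the rest in grey. The slanting edges at low level are genes with no count in either the 7-day or the 3-month libraries; Apoe stands at the far right and Gfap and Gpr17 among the abundant falls.

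Genes of cell division fell together. All 30 members tested of a list of mitosis genes (cyclins, mitotic kinases, kinesins and kinetochore proteins) fell, with a median log2 change of -2.69, and none rose. Cyclin B1 (Ccnb1), which drives entry into mitosis, measured 107, 99.9 and 114 CPM at 7 days and 8.3 and 10.5 CPM at 3 months. The groups did not overlap, and the fall was 3.53 on the log2 scale with a standard error (SE) of 0.18 (adjusted p = 6.89e-11). Topoisomerase Top2a, which untangles sister chromosomes, fell from 371, 350 and 308 CPM to 65.7 and 40.7 (log2 change -2.71, SE 0.18, adjusted p = 4.66e-09), and the proliferation marker Mki67 from 348, 359 and 234 CPM to 61.8 and 37.5 (log2 change -2.68, SE 0.24, adjusted p = 5.99e-06). The other members named by the rule, Ccnb2, the spindle checkpoint kinase Bub1b and the cytokinesis gene Prc1, fell by 3.66, 3.11 and 2.48 on the log2 scale. Summed over the list, the 7-day libraries held 2324 to 2599 CPM and the 3-month libraries 361.7 to 450.5. The 1-month libraries, at 1267 to 1349 CPM, lay between them, and sham libraries held 354.6 to 575.2. All 30 calls stood in every alternative run, including the fit with sham.

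Genes of DNA synthesis also fell. Of 30 members tested, 20 fell and none rose, with a median log2 change of -1.01. The falls included both subunits of ribonucleotide reductase, which makes deoxynucleotides: Rrm2 went from 91.4, 87.9 and 94.5 CPM to 24.1 and 25.9 (log2 change -1.89, SE 0.16, adjusted p = 5.87e-08), and Rrm1 fell by 1.46 on the log2 scale. Uhrf1, which keeps DNA methylation through replication, fell by 1.95. The licensing factor Cdc45 had a log2 change of -0.77 (SE 0.29, adjusted p = 0.0729). With sham in the fit, 14 of the 20 stood.

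The promoters of the mitosis list were read for the CCAAT box, CCAAT, bound by NF-Y, and for the CHR element, TTTGAA, bound by the DREAM complex in quiescent cells, on both strands. The windows, from RefSeq on GRCm38.p6, run from 250 bases before to 50 bases after a gene's start; 26 of the 30 members had a window. CCAAT occurred in 20 of the 26 (76.9%) and TTTGAA in 20 (76.9%), against 41.1% and 20.2% of the 27025 genes in the table. Both motifs together were in 17 (65.4%), against 7.97% of all genes. Among the 24 DNA replication members with a window, 16 held CCAAT (66.7%) and 3 held TTTGAA (12.5%). The motifs can share at most 1 base at their ends, and a match is a description of letters, not of binding. Ccnb2 and Top2a are shown because they hold several copies of both motifs, in capitals; ATTGG and TTCAAA are the same motifs on the other strand. The Ccnb2 window is chr9:70421505-70421804 and the Top2a window chr11:99024140-99024439, both read on the minus strand.
Ccnb2: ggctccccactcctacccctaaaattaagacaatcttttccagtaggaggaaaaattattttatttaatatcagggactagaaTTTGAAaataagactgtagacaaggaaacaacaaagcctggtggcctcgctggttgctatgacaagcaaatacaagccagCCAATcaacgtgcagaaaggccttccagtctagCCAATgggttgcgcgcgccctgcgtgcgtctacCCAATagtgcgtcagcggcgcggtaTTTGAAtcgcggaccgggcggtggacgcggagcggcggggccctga
Top2a: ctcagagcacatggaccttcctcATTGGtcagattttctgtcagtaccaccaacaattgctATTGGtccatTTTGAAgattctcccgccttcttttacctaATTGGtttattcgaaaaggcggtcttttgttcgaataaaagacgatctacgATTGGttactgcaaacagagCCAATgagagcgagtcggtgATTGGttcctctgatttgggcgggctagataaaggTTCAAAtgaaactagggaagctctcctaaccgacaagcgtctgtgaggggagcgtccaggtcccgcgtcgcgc

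The response genes of astrocytes split. Gfap, the filament that defines reactive astrocytes (chr11:102887336-102900912, minus strand, GRCm38), measured 1236, 1440 and 1135 CPM at 7 days and 168 and 177 CPM at 3 months. Both 3-month libraries lay below every 7-day library (log2 change -2.91, SE 0.15, adjusted p = 1.15e-10), within the sham range of 166 to 354. The acute-phase serpin Serpina3n fell from 832, 725 and 649 CPM to 99.7 and 203 (log2 change -2.30, SE 0.26, adjusted p = 0.000112). The filament gene Vim did not follow, at 1490, 1669 and 1831 CPM against 1551 and 1384 (log2 change -0.20, SE 0.12, adjusted p = 0.28). Of 13 pan-reactive genes, 3 rose, 3 fell and 7 were not called; with sham in the fit 1 rise, of the copper carrier Cp, and 2 falls, of Gfap and Serpina3n, stood. The radial glial lipid carrier Fabp7 fell from 255, 214 and 269 CPM to 56.3 and 58.3 (log2 change -2.12, SE 0.14, adjusted p = 2.32e-09), and the progenitor filament Nes fell by 0.94.

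Genes of mature astrocyte work also moved both ways: 7 of 25 rose, 7 fell and 11 were not called, with a median log2 change of -0.01. The water channel Aqp4 fell from 368, 308 and 177 CPM to 63.3 and 46.2 (log2 change -2.40, SE 0.33, adjusted p = 0.000962), while sham held 438 to 640. The folate enzyme Aldh1l1 measured 28.3, 27.4 and 23.3 CPM and then 4.81 and 13.6 (log2 change -1.56, SE 0.39, adjusted p = 0.0101). In the other direction, the glypican Gpc5 rose from 2.83, 1.37 and 3.29 CPM to 23.7 and 23.8 (log2 change 3.23, SE 0.31, adjusted p = 2.71e-07). The GABA transporter Slc6a11 rose by 1.61 and the amino acid transporter Slc7a10 by 2.02 on the log2 scale, but Slc7a10 reached only 16.1 and 12.8 CPM at 3 months against 244 to 480 in sham. The glutamate transporters Slc1a2 and Slc1a3 had log2 changes of -0.10 (adjusted p = 0.748) and -0.12 (adjusted p = 0.596). With sham in the fit, 4 of the 7 rises and 3 of the 7 falls stood.

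Lists that name reactive subtypes gave opposite balances of calls, though both summed higher at 3 months. The A1-type list summed to 776 to 955.7 CPM at 7 days and 1849 to 2507 at 3 months. The A2-type list summed to 838.6 to 916.1 CPM at 7 days and 965.7 to 1034 at 3 months. Of 12 A1-type genes tested, 7 rose and 2 fell (median log2 change 1.15), and of 12 A2-type genes, 1 rose and 4 fell (median -0.60). The A1-type rises included Gbp2, an interferon-induced GTPase, from 17.4, 21.8 and 23.5 CPM to 74.9 and 139 (log2 change 2.33, SE 0.24), the MHC class I genes H2-D1 and H2-T23, and complement C3 (log2 change 1.11). Several of these genes are also expressed by microglia, whose markers rose in the same libraries, and the part of that in the result was not tested. The A2-type fall of the glycosyltransferase B3gnt5 was from 46.8, 42.8 and 31.3 CPM to 11.4 and 8.67 (log2 change -2.03, SE 0.23, adjusted p = 2.26e-06). The A2-type pentraxin Ptx3 fell from 12.8, 19.9 and 15.1 CPM to 0 and 0.619; this call was lost with sham and with the replicate block. With sham, 4 A1-type rises, 1 A1-type fall and 2 A2-type falls stood; C3 and the A2-type rise did not.

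**Figure D2:**
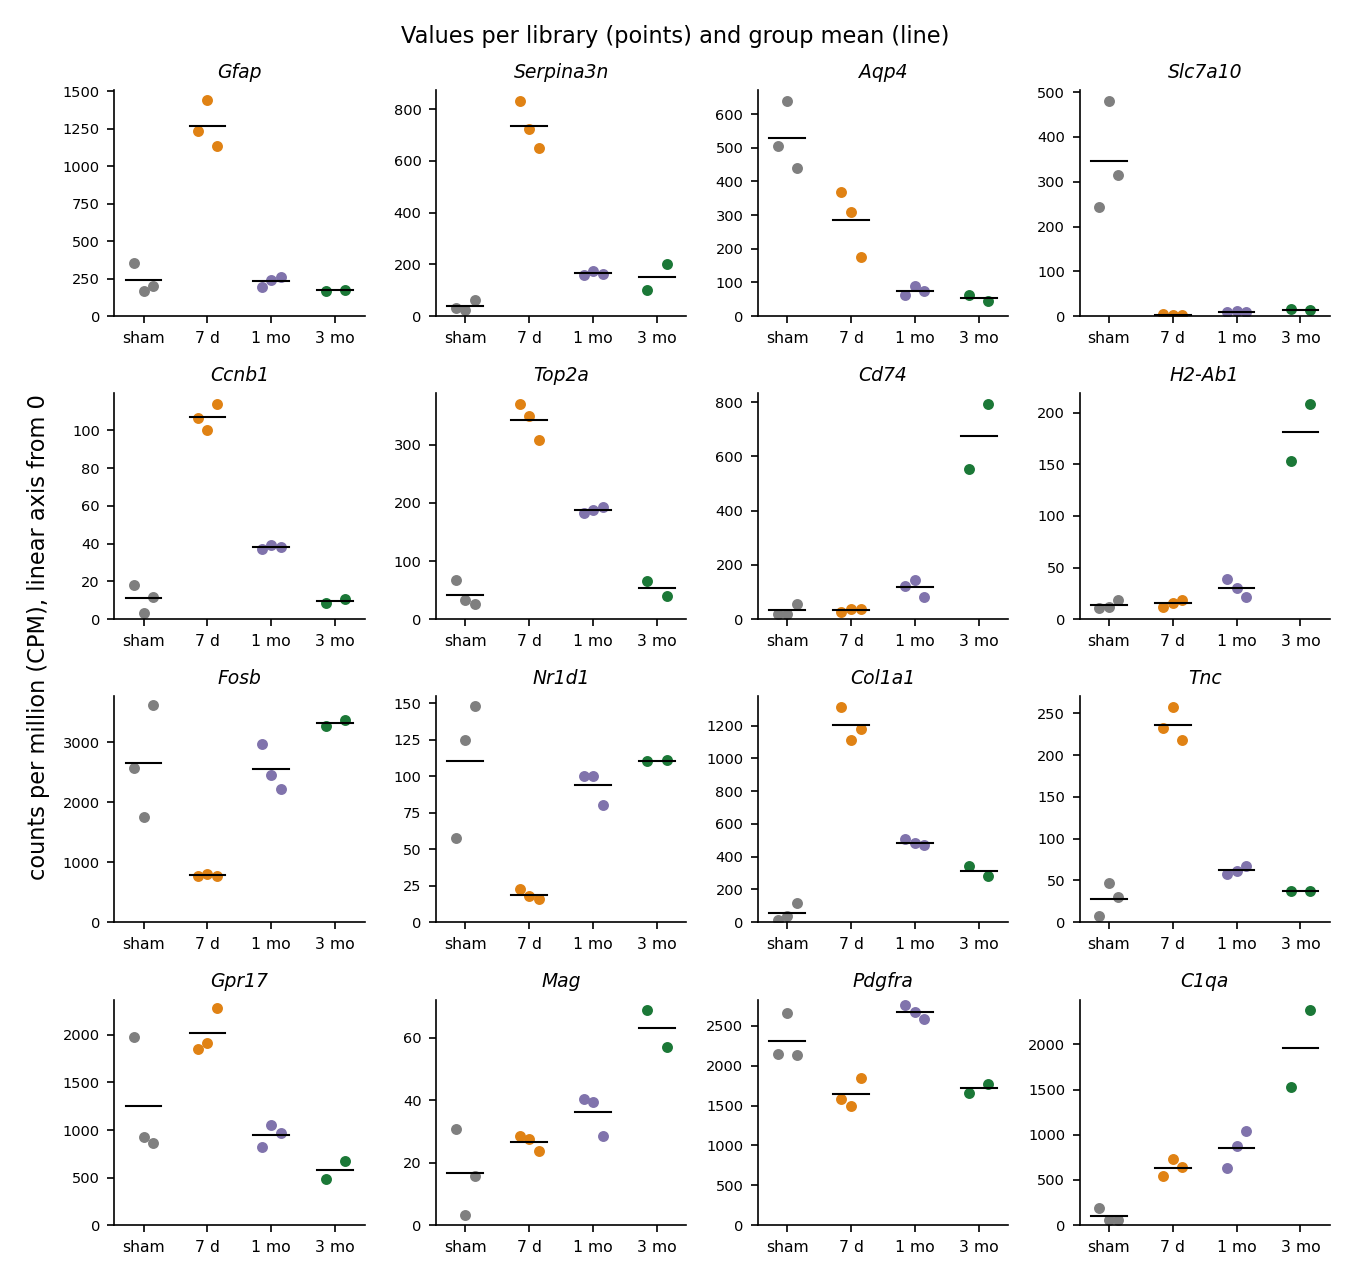
CPM on a linear axis from 0 for 16 genes in each of the 11 sorted libraries (points; grey sham, orange 7 days, purple 1 month, green 3 months), with the group mean as a line. Gfap, Serpina3n, Ccnb1, Top2a, Col1a1 and Tnc stand high in the 3 libraries at 7 days, Cd74 and H2-Ab1 in the 2 at 3 months, and Fosb and Nr1d1 are low at 7 days.

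Antigen presentation genes rose strongly. Of 10 MHC class II genes tested, 7 rose and none fell, with a median log2 change of 2.26. The invariant chain Cd74, which chaperones class II molecules, measured 27.8, 35.9 and 38.8 CPM at 7 days and 554 and 793 CPM at 3 months (log2 change 4.28, SE 0.25, adjusted p = 9.15e-07). The 1-month mean was 117 CPM and sham libraries held 20 to 57.3. The chains H2-Aa, H2-Ab1 and H2-Eb1, neighbours on chromosome 17, moved alike. H2-Ab1 rose from 11.7, 16.1 and 18.2 CPM to 153 and 209 (log2 change 3.54, SE 0.25, adjusted p = 3.16e-07), and H2-Aa and H2-Eb1 by 3.73 and 3.47. The peptide exchanger H2-DMb1 rose by 1.98. The class II master regulator Ciita was low throughout, at 1.23, 1.92 and 2.12 CPM and then 2.16 and 7.47 (log2 change 1.42, SE 0.65, adjusted p = 0.144), and passed the test only without 3-month replicate 1. With sham in the fit, 5 of the 7 rises stood, Cd74, H2-Aa, H2-Ab1 and H2-Eb1 among them.

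The promoters of the class II list were searched for CCAAT, which in these genes is known as the Y box; this search was chosen after the values were seen. All 7 members with a window held it (100.0%, against 41.1% of all genes), and the MHC class I windows held it in 12 of 14 (85.7%). A high share was not particular to the MHC lists. CCAAT was also in 13 of 16 circadian clock windows (81.2%), 20 of 26 mitosis windows (76.9%) and 16 of 24 DNA replication windows (66.7%). It was in 8 of 18 immediate early windows (44.4%) and 8 of 16 collagen windows. The windows of the chains H2-Aa, chr17:34287774-34288073 on the minus strand, and H2-Eb1, chr17:34305617-34305916 on the plus strand, are shown for the place of each match, in capitals on either strand (CCAAT or ATTGG). H2-Eb1 holds a match on each strand, and which match is the Y box was not tested.
H2-Aa: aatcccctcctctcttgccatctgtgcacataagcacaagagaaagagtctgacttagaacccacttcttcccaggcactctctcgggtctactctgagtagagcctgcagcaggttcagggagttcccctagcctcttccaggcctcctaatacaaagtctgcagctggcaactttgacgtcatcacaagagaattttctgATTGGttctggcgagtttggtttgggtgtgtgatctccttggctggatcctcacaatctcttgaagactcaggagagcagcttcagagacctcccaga
H2-Eb1: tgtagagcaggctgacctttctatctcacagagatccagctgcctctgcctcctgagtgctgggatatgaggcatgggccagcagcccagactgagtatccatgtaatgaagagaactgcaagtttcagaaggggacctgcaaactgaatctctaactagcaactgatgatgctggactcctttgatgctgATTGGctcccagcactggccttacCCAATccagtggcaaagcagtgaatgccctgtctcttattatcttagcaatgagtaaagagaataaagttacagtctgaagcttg

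MHC class I followed at smaller size: 15 of 16 genes for class I chains, peptide loading and immunoproteasome rose (median log2 change 1.19). H2-D1 measured 332, 442 and 388 CPM at 7 days and 1125 and 1488 at 3 months (log2 change 1.73, SE 0.16, adjusted p = 5.03e-07). H2-Q7 rose by 2.98 on the log2 scale and H2-T23 by 1.82. The chaperone calreticulin, Calr, had a log2 change of -0.16 (adjusted p = 0.429). The count fell to 9 without 3-month replicate 3 and to 8 with sham in the fit. The class I chains are near-identical copies, and the authors' counting could divide reads among them, so the single values are uncertain.

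Many microglial and macrophage markers rose beside these genes, at different sizes. Of 15 homeostatic microglia markers, 11 rose and 1 fell (median log2 change 0.89). The fractalkine receptor Cx3cr1 measured 302, 328 and 277 CPM and then 591 and 778 (log2 change 1.15, SE 0.20, adjusted p = 0.00101), and the lectin Siglech 9.51, 9.8 and 6.93 and then 43.6 and 52.3 (log2 change 2.43, SE 0.28). The purinergic receptor P2ry12 rose by 0.93 and the growth factor receptor Csf1r by 0.89. The summed list ran from 4421 to 5274 CPM at 7 days and from 6088 to 7661 at 3 months. Its count was 7 without 3-month replicate 3 and 1 with sham in the fit, where the fall and the calls of Cx3cr1, Siglech, P2ry12 and Csf1r were lost.

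Of 20 macrophage and phagocyte genes, 10 rose and 2 fell (median log2 change 0.99). The integrin Itgax (CD11c), a marker of disease-associated microglia and dendritic cells, rose from 11.6, 24.1 and 24.1 CPM to 243 and 291 (log2 change 3.72, SE 0.39, adjusted p = 0.000587). The lipid carrier Apoe, made by microglia and by astrocytes, rose from 8097, 11751 and 9577 CPM to 29602 and 39918 (log2 change 1.80, SE 0.18, adjusted p = 7.87e-06). The lysosomal protein Cd68 rose by 1.63. The phagocyte gene Spp1 stayed at 1276, 2202 and 2022 CPM against 1576 and 2140 (log2 change -0.0038, SE 0.24, adjusted p = 0.996), and Gpnmb had a log2 change of 1.02 (SE 0.31, adjusted p = 0.058), called in 9 of the 16 alternatives. The list summed to 14110 to 21340 CPM at 7 days and 39860 to 52610 at 3 months, mostly Apoe. Cd68 and Itgax were not called with sham in the fit, where 2 of the 10 rises and neither fall stood. Those 2 rises were Apoe and Cd74, which is also on the MHC class II list. The falls were Cd9 and Msr1, each by 0.68 on the log2 scale. The macrophage marker Lyz2 overlapped, at 1440 to 2710 CPM per kilobase at 7 days and 2460 to 2780 at 3 months.

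Many complement, cytokine, NF-kB and chemokine genes rose with them. Of 16 complement genes, 9 rose and 1 fell: C1qa measured 542, 727 and 643 CPM and then 1533 and 2379 (log2 change 1.59, SE 0.22, adjusted p = 0.000351). None of these 10 was called with sham in the fit. Of 20 cytokine and NF-kB genes, 14 rose and none fell, led by the interleukin-1 receptor antagonist Il1rn, from 10.7, 13.7 and 10.5 CPM to 57.4 and 51.9 (log2 change 2.21, SE 0.23, adjusted p = 7.48e-07); the count was 9 without 7-day replicate 3 or without 3-month replicate 3, and 4 with sham. Of 20 chemokine genes, 9 rose and 1 fell. The rises included Cxcl16 (log2 change 1.53) and the neuronal and glial chemokine Cx3cl1 (log2 change 1.36); with sham 3 rises stood and the fall did not. Of 29 interferon-stimulated genes, 6 rose and none fell, beside 25.2% of coding genes called in either direction and 8.31% of all genes called higher. Fewer of these rises stood without 3-month replicate 3, and none with sham.

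Matrix proteases moved both ways: 6 of 20 proteases and inhibitors rose and 4 fell, 3 and 2 of them with sham in the fit. Stromelysin-1, Mmp3 (chr9:7445822-7455975, plus strand), had no count in any 7-day library and measured 11.8 and 10.3 CPM at 3 months, at least 406-fold higher against a floor of 3 counts over the 7-day group. It stood at a mean of 9.6 CPM at 1 month and at 0 in sham. The macrophage elastase Mmp12 rose from 2.11, 5.59 and 7.5 CPM to 117 and 174 (log2 change 4.81, SE 0.45, adjusted p = 0.000214). The versican-cleaving Adamts9 fell by 1.63 on the log2 scale.

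Matrix proteins went the other way. Of 20 collagens, 15 fell and 2 rose, with a median log2 change of -1.14, and the summed level went from 6766 to 7210 CPM at 7 days to 3239 and 3240 at 3 months, against 721.2 to 1766 in sham. Col1a1, the main fibrillar chain of scar, fell from 1313, 1111 and 1181 CPM to 345 and 280 (log2 change -1.96, SE 0.13, adjusted p = 2.32e-09), and Col11a1 from 348, 308 and 320 to 57.6 and 47.4 (log2 change -2.65, SE 0.16, adjusted p = 6.36e-10). Cartilage collagen Col2a1 (chr15:97975602-98004695, minus strand), which is not on the list, fell from 33.4, 47.8 and 37.9 CPM to 0.691 and 0.428 (log2 change -6.11, SE 0.59, adjusted p = 7.76e-06). The rises were Col5a3, from 64, 61.7 and 69.7 CPM to 173 and 185 (log2 change 1.44), and Col27a1 (log2 change 1.02). Of 16 fibroblast and leptomeningeal markers, 5 rose and 5 fell, of which no rise and 1 fall stood with sham in the fit. With sham, 4 of the 15 collagen falls stood, Col11a1 among them and Col1a1 not, and the rise of Col27a1 was lost.

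Of 16 chondroitin sulfate proteoglycans, tenascins and link proteins, which line scars and limit axon growth, 6 fell and 3 rose. Tenascin-C (Tnc) measured 233, 258 and 218 CPM and then 37.6 and 36.9 (log2 change -2.69, SE 0.14, adjusted p = 1.36e-10), a call lost with sham in the fit, where 3 of the 6 falls stood and none of the 3 rises. Without 3-month replicate 3, none of the 3 rises was called. Versican (Vcan), tenascin-R (Tnr) and neurocan (Ncan) fell by 1.02, 0.97 and 0.85 on the log2 scale. The integrin subunit Itgb1, a matrix receptor, fell from 722, 730 and 808 CPM to 346 and 412 (log2 change -1.01, SE 0.12, adjusted p = 3.52e-06).

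**Figure D3:**
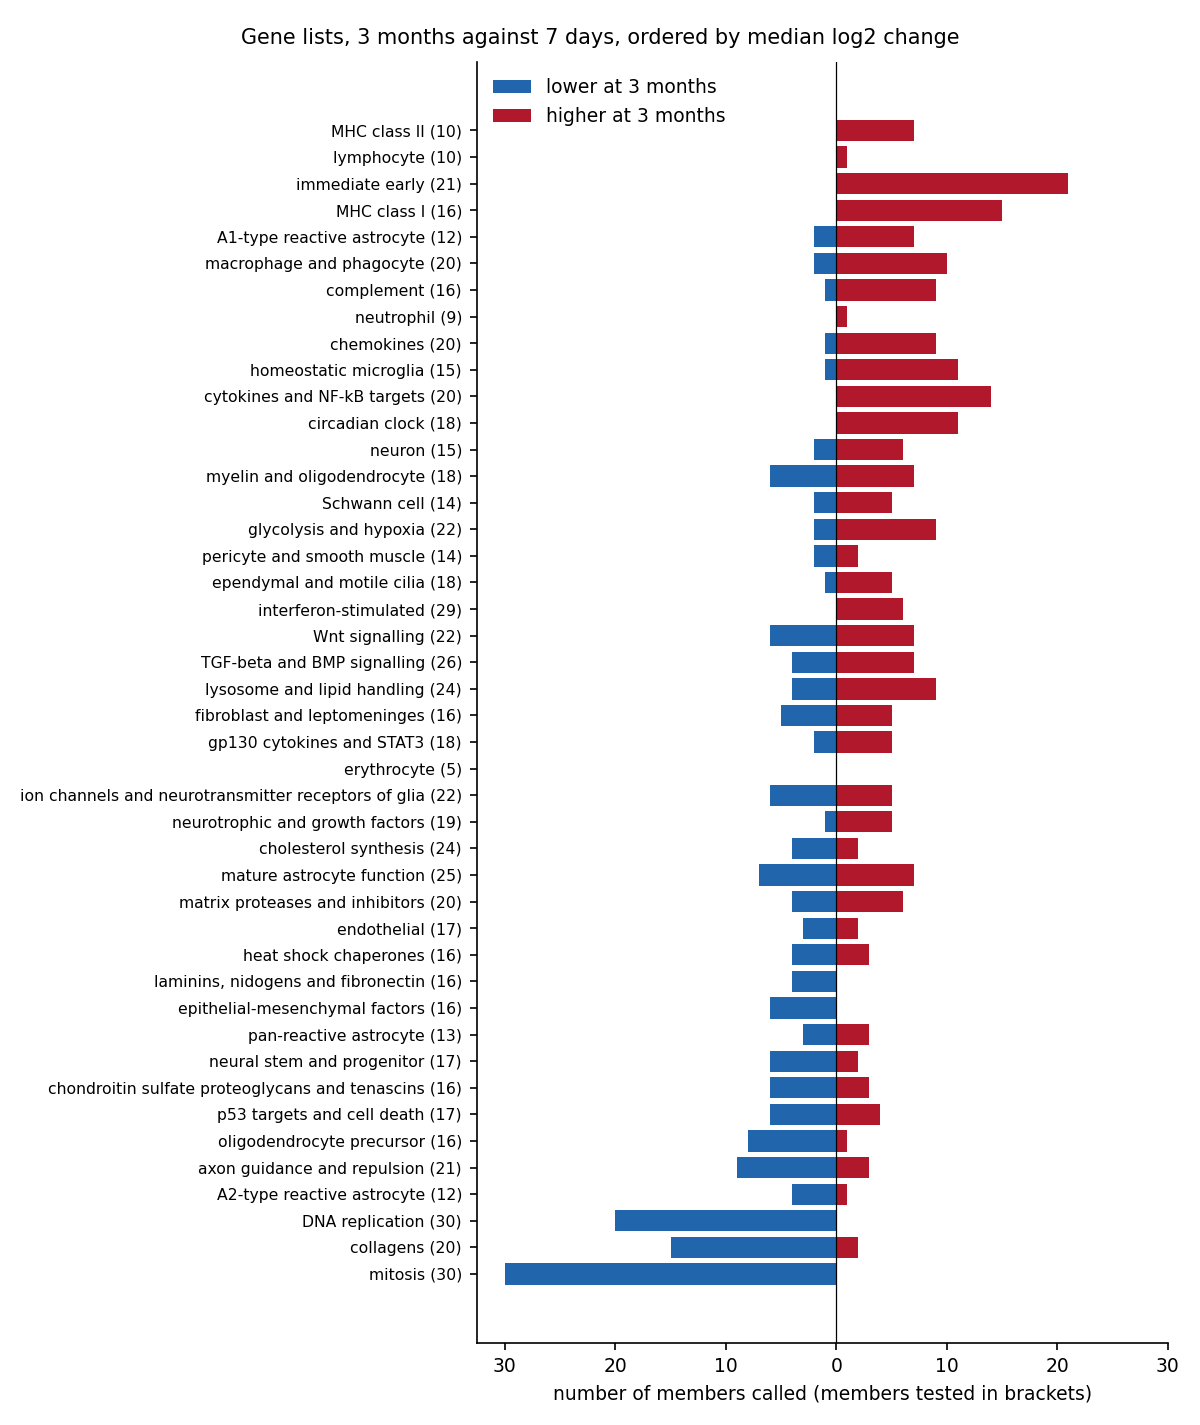
Number of members called lower (blue, to the left) and higher (red, to the right) at 3 months for each of the 44 gene lists, with the number tested in brackets, ordered by median log2 change. Mitosis, with 30 of 30 lower, is at the foot; immediate early genes, with 21 of 21 higher, and MHC class II, with 7 of 10, are near the top.

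Immediate early genes, transcription factors and feedback regulators switched on within minutes by many stimuli, rose as a block. All 21 rose, with a median log2 change of 1.33. Fosb measured 766, 811 and 774 CPM at 7 days and 3281 and 3370 at 3 months (log2 change 2.06, SE 0.13, adjusted p = 7.4e-10), and Fos 2093, 1954 and 2137 and then 4633 and 4804 (log2 change 1.17, SE 0.12, adjusted p = 3.13e-07). Egr1, Egr2 and Nr4a1 rose by 1.78, 1.98 and 1.47. Summed over the list, the 7-day libraries held 8588 to 9025 CPM, the 1-month libraries 18340 to 21380 and the 3-month libraries 23200 to 25310. Sham libraries held 13630 to 30610 CPM, so the 7-day group stood lowest. All 21 calls stood in each leave-one-out fit, and 12 stood with sham in the fit.

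The half-site TGACG of the cAMP response element, searched after the values were seen and on both strands, was in 11 of the 18 immediate early windows (61.1%), against 23% of all genes. It was also in 13 of 24 DNA replication windows (54.2%) and in 9 of 14 MHC class I windows (64.3%). The Fos window, chr12:85473640-85473939 on the plus strand, is shown because it holds 2 copies, in capitals.
Fos: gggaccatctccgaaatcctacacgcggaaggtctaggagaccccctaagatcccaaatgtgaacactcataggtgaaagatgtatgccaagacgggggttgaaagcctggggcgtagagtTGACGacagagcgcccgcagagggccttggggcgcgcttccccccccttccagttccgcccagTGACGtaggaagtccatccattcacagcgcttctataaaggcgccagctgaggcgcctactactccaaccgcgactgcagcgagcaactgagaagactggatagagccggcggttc

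Clock output genes rose in the same direction. Of 18 circadian genes, 11 rose and none fell (median log2 change 0.74). The repressor Nr1d1 measured 22.6, 18.1 and 15.8 CPM and then 110 and 111 (log2 change 2.53, SE 0.16, adjusted p = 1.4e-09), with 57.9 to 148 in sham. The output factor Dbp rose by 1.73 and Nfil3 by 1.24, the latter not with sham in the fit, where 7 of the 11 stood. The time of day at which tissue was taken is not given in the labels. Vegfa and the glycolytic activator Pfkfb3, from a glycolysis and hypoxia list in which 9 of 22 rose and 2 fell, rose by 1.42 and 1.06. With sham in the fit, 3 of these 9 rises and neither fall stood.

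**Figure D4:**
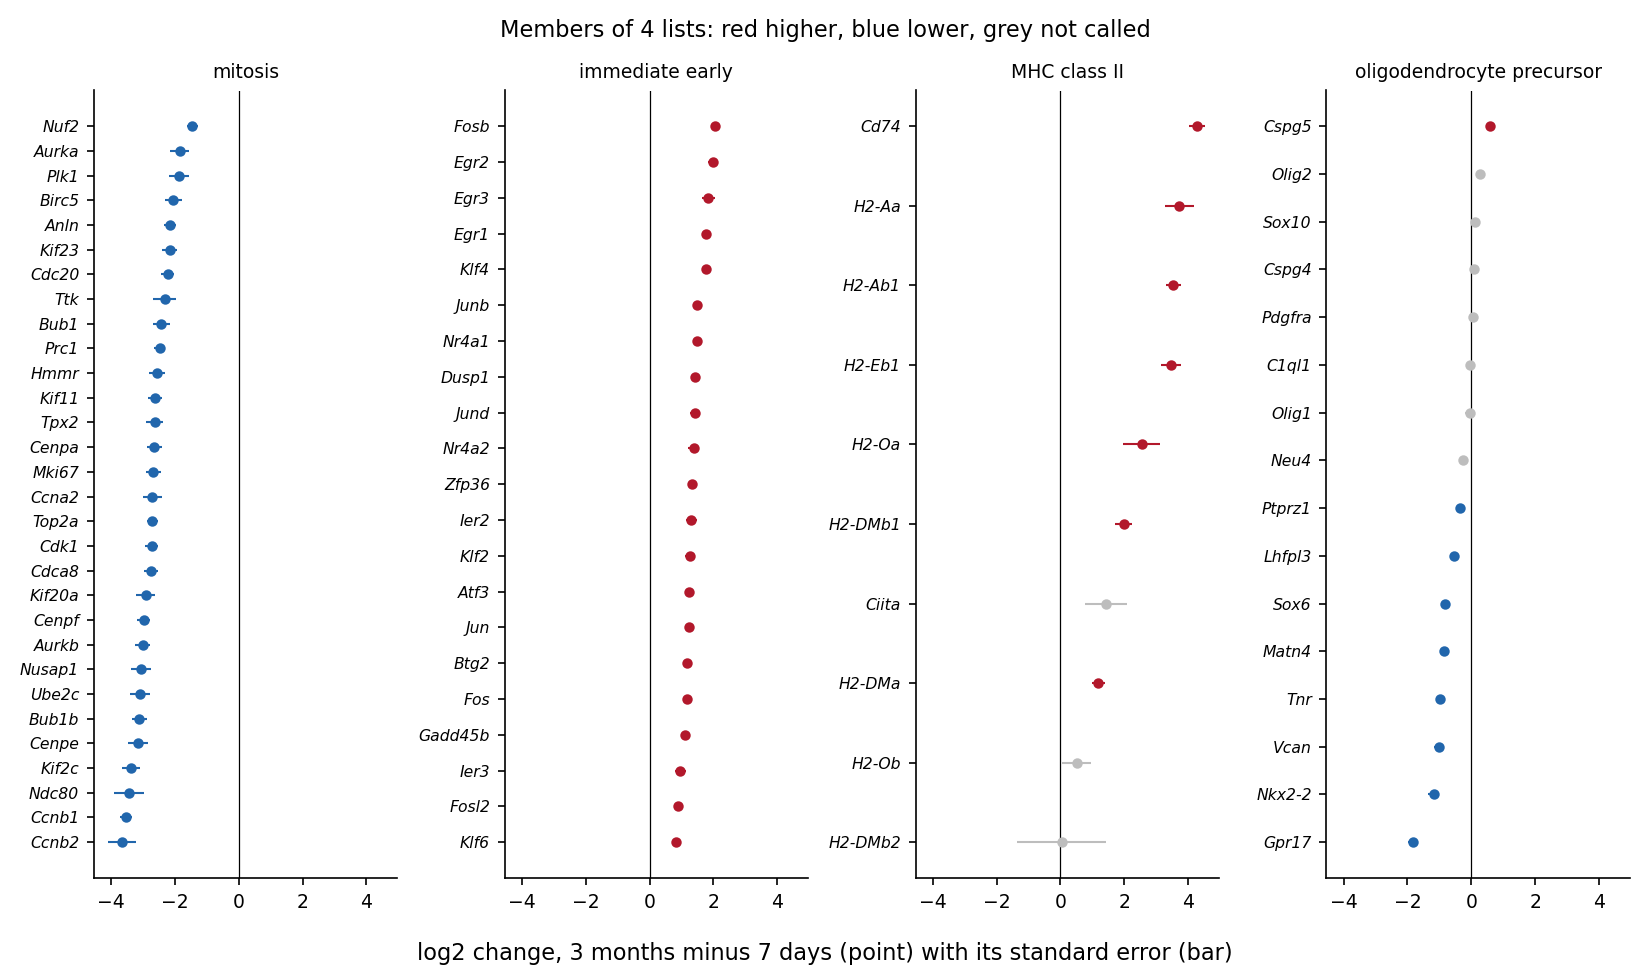
Log2 change (3 months minus 7 days) with its standard error for every tested member of the mitosis, immediate early, MHC class II and oligodendrocyte precursor lists; blue and red members were called. The mitosis and immediate early members all lie on 1 side of 0, while in the precursor list Gpr17 is lowest and Pdgfra, Olig2, Sox10 and Cspg4 lie near 0.

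The oligodendrocyte precursor list was mixed: 8 of 16 fell, 1 rose and 7, among them Pdgfra and Olig2, were not called. With sham in the fit 6 of the falls stood and the rise did not. Pdgfra measured 1587, 1499 and 1843 CPM and then 1653 and 1778 (log2 change 0.04, SE 0.12, adjusted p = 0.869), and Olig2 had a log2 change of 0.27 (adjusted p = 0.189), called without 7-day replicate 3 or without 3-month replicate 1. The falls included some genes of precursors committed to differentiate. The receptor Gpr17 went from 1847, 1919 and 2282 CPM to 482 and 672 (log2 change -1.83, SE 0.15, adjusted p = 5.03e-08), Bcas1 from 493, 493 and 501 to 131 and 185 (log2 change -1.67, SE 0.14, adjusted p = 4.04e-08), and the lineage factor Nkx2-2 by 1.18 on the log2 scale. Enpp6, a marker of newly formed oligodendrocytes, fell by 3.46, and this call was lost with sham in the fit. Bcas1 and Enpp6 are not on the precursor list, and Bcas1 is counted among the falls of the myelin and oligodendrocyte list below. Its members Vcan and Tnr, given above among the proteoglycans and tenascins, also fell, by 1.02 and 0.97. Neu4, on the same list, was not called (log2 change -0.27, adjusted p = 0.159). The list summed to 16070 to 17640 CPM at 7 days and 11790 to 13900 at 3 months.

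Of 18 myelin and oligodendrocyte genes, 7 rose and 6 fell. Rises included some genes of mature myelin. Mbp went from 207, 223 and 208 CPM to 383 and 526 (log2 change 1.07, SE 0.15, adjusted p = 3.97e-05). The N-acetylaspartate enzyme Aspa went from 7.21, 7.12 and 10.5 to 46.8 and 39.3 (log2 change 2.36, SE 0.22), and Ermn rose by 4.60. Mog and Gjb1 were not called (log2 changes 0.998 and 1.38, adjusted p = 0.113 and 0.0753). Falls included the lipid enzymes Ugt8a and Enpp2, each by 1.31, and the tight junction gene Cldn11, from 276, 246 and 280 CPM to 30.2 and 22.7 (log2 change -3.35, SE 0.16, adjusted p = 6.17e-11). None of the 7 rises was called with sham in the fit and 5 of the 6 falls were, Cldn11 being lost. The list summed to 3062 to 3230 CPM at 7 days and 2507 to 2624 at 3 months.

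Genes of Schwann cells, which myelinate peripheral axons and can enter the injured cord, rose in part: 5 of 14 rose and 2 fell. The sodium channel Scn7a went from 37.7, 26.2 and 35.9 CPM to 399 and 481 (log2 change 3.71, SE 0.17, adjusted p = 5.7e-10). The axonal and glial potassium channel Kcna1, which is not on the list, rose by 2.19. Sham libraries ranged from 1.44 to 816 CPM for Scn7a, and the calls of Scn7a and Kcna1 were lost when they entered the fit. With sham, 1 of the 5 rises on the list and neither fall stood.

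Long non-coding genes gave 216 rises and 138 falls. The imprinted H19 (chr7:142575529-142578143, minus strand), active in growing tissue, fell from 20.4, 43.3 and 23.2 CPM to 1.85 and 0.857 (log2 change -4.40, SE 0.58, adjusted p = 0.000134). Bcas1os1 and Bcas1os2, on the strand opposite Bcas1, fell by 1.77 and 1.74, close to the 1.67 of Bcas1; exons of Bcas1os1 overlap those of Bcas1 over 440 of 1239 bases (35.5%). Grin1os rose by 1.80 beside Grin1, at 1.77, with 45.2% of its exonic bases on Grin1 exons. The labels name a strand-marking kit, but the strand setting of the counting is not given in the sources used here, so reads of these partners cannot be told apart. Neat1, the scaffold of nuclear paraspeckles, rose from 7.21, 10.1 and 6.86 CPM to 34.8 and 23.7 (log2 change 1.84, SE 0.36, adjusted p = 0.0016), a call lost with sham. Zeb2os, the antisense transcript named in the series title, measured 26, 26.5 and 23.2 CPM and then 31.4 and 34.3 (log2 change 0.36, SE 0.20, adjusted p = 0.235). Zeb2, with which it shares 32.8% of its exonic bases, had a log2 change of -0.07 (adjusted p = 0.817).

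The 2 libraries at 3 months differed from each other in some genes. Ependymal genes summed to 1670 CPM in replicate 1 and 719.4 in replicate 3, against 940.3 to 1067 at 7 days, and 5 of 18 rose and 1 fell. Without replicate 1 the balance turned, with 1 higher and 5 lower, and without replicate 3 it was 10 higher and 1 lower; with sham in the fit 3 rises stood and the fall did not. The meningeal enzyme Ptgds, among the largest rises, measured 45.9 and 467 CPM in these libraries against at most 2.79 at 7 days, and its call was lost with sham in the fit and without 7-day replicate 1 or 3. The lubricin gene Prg4 measured 39.1 and 5.62 CPM against at most 1.31. Lars2 took 0.255 to 0.443% of counts at 7 days and 0.0342 to 0.0581% at 3 months (log2 change -2.90, SE 0.36, adjusted p = 0.00102).

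Markers of further cell types that the sort could hold were also tested, against the 18.9% of all genes and 25.2% of coding genes called. Of 17 endothelial markers 2 rose and 3 fell, of 14 pericyte and smooth muscle markers 2 rose and 2 fell, and with sham in the fit 1 of these 9 calls stood. Of 10 lymphocyte markers 1 rose, with summed levels of 7.715 to 10.54 CPM at 7 days and 15.52 to 15.6 at 3 months. Of 9 neutrophil markers 1 rose. Neither the lymphocyte nor the neutrophil call stood with sham. In the reported fit none of 5 erythrocyte markers passed edgeR's test, nor an unadjusted p under 0.05, and none passed DESeq2's test. Without 7-day replicate 3, 2 of them were called higher. That library held 73.74 CPM over the list, against 6.172 and 0.9583 in 7-day replicates 1 and 2. Sums of the endothelial list overlapped, at 861.2 to 992.6 CPM and 798.6 to 1101.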

How the data were processed

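Per the labels' protocols, RNA was taken from sorted tdTomato+ cells and sequenced after a directional library kit. The deposited table holds whole-number read counts per gene, which the authors did not normalise. Per the submitters' processing notes, mm10, FastQC, TopHat2 2.1.0, Cufflinks 2.2.1 and DESeq2 were used, with no role given; the counting program, annotation and strand setting are not given in the sources used here. Of 43693 genes listed, those passing edgeR's filterByExpr at a minimum count of 10 were tested with edgeR 4.0.16 (R 4.3.3): trimmed mean of M values (TMM) scaling and the robust quasi-likelihood F test on 8 injured sorted libraries, contrast 3 months minus 7 days, with Benjamini-Hochberg adjustment over all genes tested at 0.05. SE is the size of the log2 change divided by the square root of F. Printed CPM were scaled by TMM over all 11 sorted libraries, so that sham is on the same scale. The method was tested on simulated data.

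The 44 gene lists and the libraries compared were chosen with earlier results of these data known, so a list describes and does not test. Genes were named by a rule: a fixed set of markers and reaction genes, Zeb2 and Zeb2os; the 12 largest coding changes in each direction among calls with a mean of at least 10 CPM in the higher group and no overlap; up to 4 called members per list and direction and the members not called that changed most; the 5 largest changes in each direction among long non-coding calls with a mean of at least 1 CPM; and the 5 smallest adjusted p in each direction at 10 CPM or more. Some of these are given only within counts, other genes were named after their values were seen, and some results are not reported here. Exon lengths and coordinates are from GENCODE M21 (GRCm38), which matched 33340 of 33489 Ensembl identifiers in the table, and promoters from RefSeq. Replicates are separate pools of mice per the labels. Alternatives changed the scaling, filter, tool, libraries in the fit and replicate block.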

Additional observations from a re-analysis of the deposited data

How the results depend on the processing

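With the sham libraries also in the fit, 1506 genes were called, 604 higher and 902 lower, of which 414 and 479 changed at least 2-fold; these are 34.3% of the 4384 reported calls by shared genes. The coefficient of biological variation without sham was 0.53, and pairs of sham libraries differed by a chi-square of 81.14 to 129.1 per degree of freedom against 19.88 to 41.89 within injured groups. Leaving out 1 library at a time gave 3409 to 4643 calls (1363 to 1933 higher, 2042 to 2710 lower), of which 757 to 1092 were called higher by at least 2-fold and 707 to 1390 were called lower by at least 2-fold; the 1390 came without 3-month replicate 1, against 791. DESeq2 gave 4882 calls, with 925 genes left without an adjusted p, and scaling, filters and the 2 groups alone gave 3934 to 4809. Of the calls, 1357 stood in all 16 alternatives and 2248 (51.3%) in all 8 leave-one-out fits. With the replicate block, 4543 genes were called; only replicates 1 and 3 pair the groups, with correlations of their deviations of 0.28 and 0.214, so the numbers do not establish a pairing. Among 347 named genes, Slc10a6 reversed, from 1.54 (not called) to -2.327 without 3-month replicate 1, and was 2.449 without 3-month replicate 3; the cause was not tested, and its 3-month libraries measured 6.66 and 0.238 CPM.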

Other observations

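Several growth and guidance genes not described above also differed. Of 21 axon guidance genes, 9 fell and 3 rose: the repellents Slit1 and Slit3 fell by 1.73 and 2.54 on the log2 scale, and the receptor Ephb2 went from 72.3, 63.4 and 74.9 CPM to 36.5 and 33.9 (log2 change -1.01, SE 0.17). The count of falls was 6 without 7-day replicate 2; with sham in the fit 4 of the falls and 1 of the rises stood. Among 22 Wnt genes, 7 rose and 6 fell; the ligand Wnt5a fell from 23.8, 20.5 and 17.3 CPM to 8.71 and 5 (log2 change -1.59, SE 0.33), and the rises numbered 2 without 3-month replicate 3. With sham in the fit, 2 of the Wnt rises and 3 of the falls stood. Of 17 p53 target and cell death genes, 6 fell and 4 rose; with sham in the fit 4 of the falls and 1 of the rises stood.

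Some synaptic genes were higher at 3 months, while the neuronal genes Uchl1 and Tubb3 fell, by 1.23 and 0.998 on the log2 scale. The list of neuronal genes summed to 337.6 to 410.1 CPM at 7 days and 280.9 to 334.4 at 3 months. Rph3a, a vesicle protein, rose from 1.13, 0.986 and 1.52 CPM to 28.6 and 40 (log2 change 4.79, SE 0.29), with 47 to 81.8 in sham, and the GABA-synthesising enzyme Gad1 from 7.62, 8.08 and 6.05 to 25.7 and 23.6 (log2 change 1.74, SE 0.25). Of 15 neuronal genes 6 rose and 2 fell, 3 of the rises standing without 3-month replicate 3 and 5 rises and 1 fall with sham in the fit, while Rbfox3 stayed below 0.3 CPM per kilobase. The cytokine gene Il2 measured 0.063, 0 and 0 CPM at 7 days and 15.3 and 13.2 at 3 months; sham replicate 3 held 39.8 CPM, and the call was lost with sham in the fit. The T cell receptor component Cd3e had no count at 7 days and measured 0.197 and 0.128 CPM per kilobase at 3 months, and was not called.

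Other lists gave mixed counts, and most of their calls were lost with sham in the fit. For comparison, 18.9% of all genes tested and 25.2% of coding genes were called in either direction, a share that several of these lists are near. Of 26 TGF-beta and BMP genes 7 rose and 4 fell, of which 1 and 2 stood with sham. Of 24 lysosome and lipid genes 9 rose and 4 fell, of which 4 rises and no fall stood. Of 18 gp130 and STAT3 genes 5 rose and 2 fell, and of 24 cholesterol synthesis genes 2 rose and 4 fell; no call of either list stood with sham, and neither cholesterol rise stood without 3-month replicate 3. Of 16 epithelial-mesenchymal factors 6 fell, 2 without 3-month replicate 1 and none with sham. Of 16 genes on the laminin, nidogen and fibronectin list 4 fell: Itgb1, given above, Lamc1, agrin (Agrn) and fibronectin (Fn1). With sham in the fit 3 of these stood, and Fn1 was lost. Of 17 neural stem and progenitor genes 6 fell and 2 rose, of which 4 and 1 stood. Of 22 glial channel and receptor genes 6 fell and 5 rose, of which 3 and 1 stood, and 2 rises stood without 3-month replicate 3. Of 19 growth factors 5 rose and 1 fell, of which 2 and 1 stood. Of 16 heat shock chaperones 3 rose and 4 fell, of which 3 and 1 stood, and 2 falls stood without 3-month replicate 3.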
